A study of Drosophila melanogaster with 12 samples.

Results

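The 35 genes described here encode proteins with which neurons release, sense and conduct signals: 1 nuclear RNA-binding protein that marks neurons (elav), 11 genes of vesicle release, 7 voltage-gated or calcium-activated channels, 5 genes of transmitter synthesis and vesicular loading, 9 transmitter receptors and 2 scaffold or adhesion genes. They were taken by gene symbol from a table of 24228 features, and each symbol matched 1 row. All 35 passed the filter on low counts, which left 10238 features for testing, and the lowest count of any of them in any library was 135.

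The table came from polyA RNA of whole heads of adult Oregon-R (ORE-R) flies of Drosophila melanogaster, a wild-type laboratory strain. The 4 groups were group-housed females, isolated females, group-housed males and isolated males, with 3 libraries of 200 heads each. All flies first lived for 3 to 5 days in mixed-sex company, then either alone or with their own sex in groups of 25 for 7 days. Replicate 0 of each group belonged to batch 1 and replicates 1 and 2 to batch 2, and whether the heads of each pool were from cultures of their own is not stated, so the p-values measure a spread between libraries that can be technical in part.

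At a synapse, an action potential carried by voltage-gated sodium and potassium channels opens calcium channels at the active zone. Calcium binds synaptotagmin, and the SNARE proteins syntaxin, SNAP25 and synaptobrevin then fuse the vesicle with the membrane. In the fly brain acetylcholine is the main excitatory transmitter and GABA the main inhibitory one, while glutamate acts at the neuromuscular junction and at central synapses, through both excitatory receptors and a glutamate-gated chloride channel. A fly head holds photoreceptors, which are neurons of the eye, and also glia, fat body, muscle and hemocytes. The share of neuronal RNA in head RNA depends on all of them, and photoreceptors can add to it. In bulk RNA of this kind, fewer cells of a type and less RNA per cell cannot be told apart.

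Total counts per library ran from 2584050 to 17122099, and the isolated females held the shallowest libraries, at 2584050 and 3224485 counts in batch 2. The column of isolated male replicate 1 is marked as merged, without further detail, and was used as 1 library. All 35 genes had counts in every library, the defining neuronal markers elav, nSyb, brp, Syt1, ChAT, VGlut and Gad1 among them. As these are themselves members, this shows that the heads held neuronal RNA and is no separate check of the set. Markers of photoreceptors and of the other cell types were present too. All 20 photoreceptor markers had counts in all 12 libraries, as did the glial marker repo, while the fat body marker Pepck1 was at 0 in all 12 and gcm, Lsp1gamma, Fbp2, TpnC4 and He were at 0 in some. Group-housed female replicates 1 and 2 stood apart from each other, with 32 of the 35 genes below the group mean in replicate 1 and 34 above it in replicate 2, and isolated male replicates 1 and 2 and group-housed male replicates 0 and 2 did so too. Medians of the comparisons are therefore also given with single libraries left out.

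The 35 genes together held between 1.619% and 2.504% of the head counts, and in each sex the means of isolated and group-housed flies differed by less than the SD within either group. In group-housed females they took 1.943%, 1.619% and 2.303% of all feature counts in replicates 0, 1 and 2, a mean of 1.955% ± 0.342 (SD, n = 3). In isolated females they took 1.891%, 1.947% and 1.975%, a mean of 1.938% ± 0.0430 (SD, n = 3). The isolated libraries all fell inside the range of the group-housed ones, which was wide, and the ratio of the means was 0.991.

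In males the share was 2.00%, 2.094% and 2.504% in group housing, a mean of 2.199% ± 0.268 (SD, n = 3). Isolated males had 2.235%, 2.015% and 2.376%, a mean of 2.209% ± 0.182 (SD, n = 3), and the ratio of the means was 1.004. The ranges overlapped here as well. Between the sexes, the 3 isolated female libraries lay below all 6 male libraries, while group-housed females overlapped both male groups. This separation of isolated females from males was lost with the fat body list left out of the total, where isolated females held 2.008% to 2.116% and the lowest libraries of group-housed and isolated males 2.041% and 2.051%. With TMM-scaled library sizes it was lost as well, at 1.966% to 2.264% in isolated females against 1.85% to 2.454% and 1.817% to 2.482% in the male groups. No test was made of these sums, because the genes were chosen with earlier results known.

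Another 139 genes were listed for neuronal functions, none of them among the 35. Not all are specific to neurons, and Got1, Got2 and Gs1, for example, are also made in other cells. Whether the 35 genes are made in neurons alone was not tested either. The 139 genes held 4.223% ± 0.420 of counts in group-housed females, 4.043% ± 0.102 in isolated females, 4.771% ± 0.223 in group-housed males and 4.766% ± 0.353 in isolated males (SD, n = 3). In each sex the means of the housings differed by less than the SD of the group-housed flies, but in females by more than the SD of the isolated flies. Of the 6 lists that make up the 139, only other transmitter synthesis and clearance genes did not overlap between the female housings. They held 0.397% to 0.418% in group-housed and 0.45% to 0.466% in isolated females. The means of the remaining lists were lower in isolated females, with overlapping ranges. Together the 35 and the 139 genes made up 6.178% ± 0.753, 5.981% ± 0.123, 6.971% ± 0.489 and 6.975% ± 0.535 of counts in the same order of groups (SD, n = 3). The 20 photoreceptor markers, which report on the retina, held 2.319% ± 0.118, 2.109% ± 0.184, 2.19% ± 0.232 and 2.11% ± 0.150 in the same order (SD, n = 3). In whole heads the retina's part of the counts of the 35 genes cannot be told from the brain's. The 14 glial markers held 0.330% ± 0.0102, 0.340% ± 0.0298, 0.376% ± 0.0149 and 0.380% ± 0.0204 (SD, n = 3).

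Of the 5 lists for photoreceptors, glia, fat body, muscle and hemocytes, the fat body list was the only one whose isolated and group-housed female libraries did not overlap. Its 18 markers, among them the storage protein Lsp2 and the yolk protein genes, held 2.992% to 3.789% of counts in group-housed females and 5.83% to 7.319% in isolated females, but 1.54% to 2.001% and 1.617% to 1.99% in group-housed and isolated males. Because these counts enter the total, the share of the 35 genes was also taken of the counts without the fat body list, where it was 2.075% ± 0.0587 in isolated and 2.026% ± 0.355 in group-housed females (SD, n = 3). Muscle markers held 0.573% to 0.700% in group-housed and 0.597% to 0.602% in isolated females, and 0.427% to 0.542% and 0.442% to 0.526% in the male groups. The 12 hemocyte markers overlapped in all 4 groups, between 0.177% and 0.406%.

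**Figure D1:**
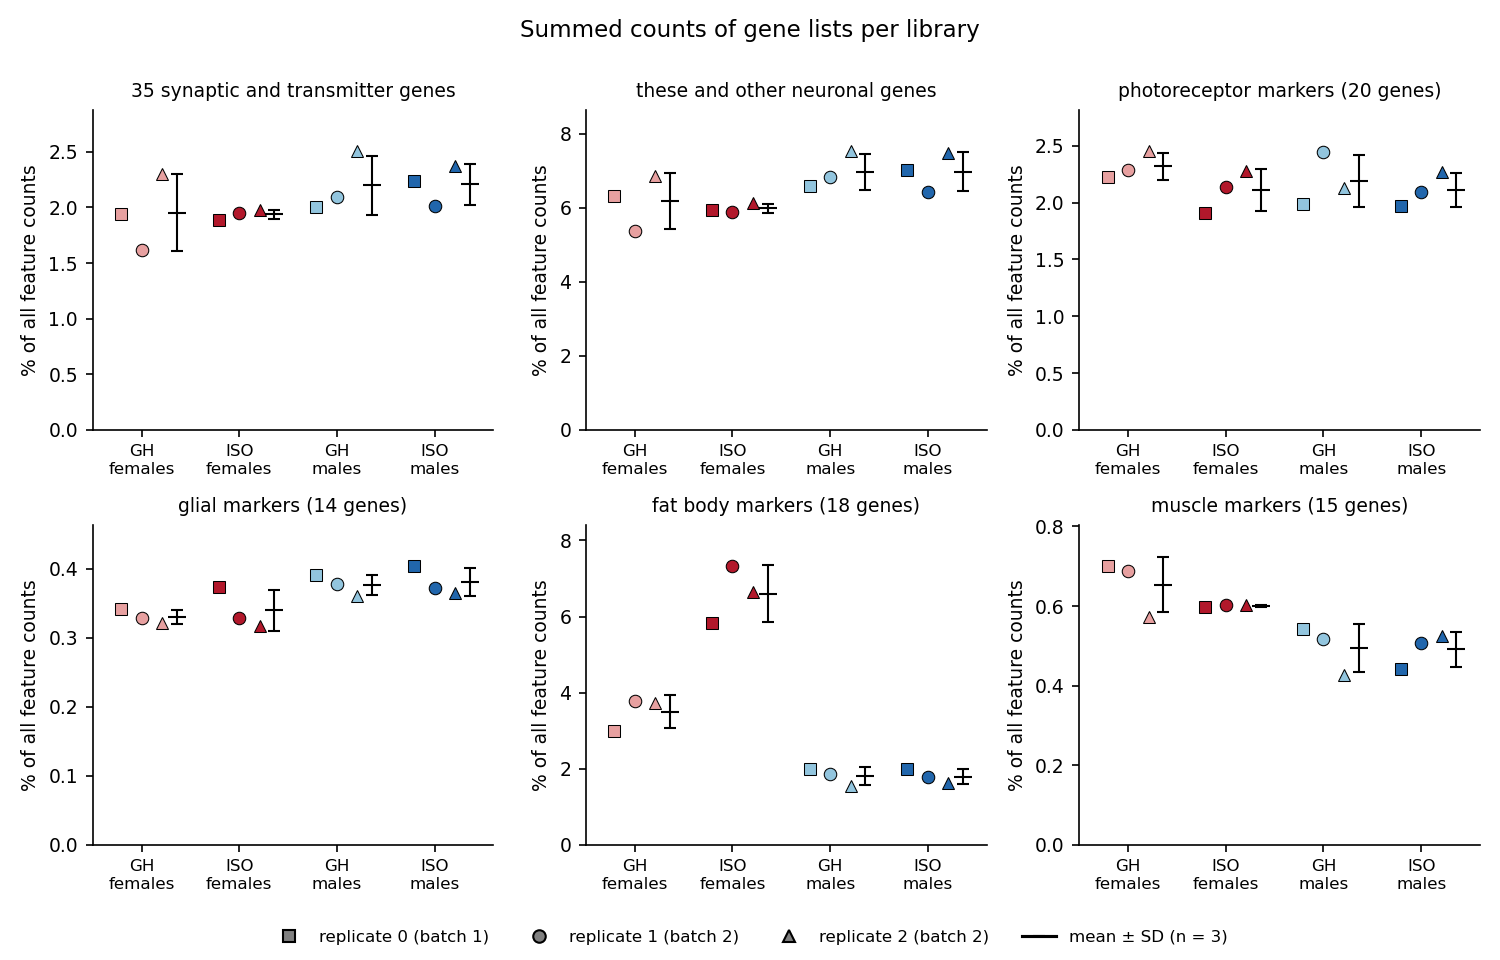
Summed counts of 6 gene lists as a percentage of all feature counts in each of the 12 libraries (GH, group-housed; ISO, isolated), with the mean and SD of each group in black; each panel starts at 0. The 35 synaptic and transmitter genes stand at 1.619% to 2.504% in all groups, while the fat body markers reach 5.83% to 7.319% in isolated females and at most 3.789% elsewhere.

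Within the sum, the release genes were the largest block. They took 0.970% ± 0.177 of counts in group-housed females, 0.921% ± 0.0194 in isolated females, 1.072% ± 0.122 in group-housed males and 1.071% ± 0.0960 in isolated males (SD, n = 3). The channels took 0.391% ± 0.0686, 0.432% ± 0.00879, 0.424% ± 0.0606 and 0.435% ± 0.0394, and the receptors 0.271% ± 0.0537, 0.273% ± 0.0157, 0.313% ± 0.0676 and 0.317% ± 0.0252 (SD, n = 3). Genes of transmitter synthesis and loading took 0.157% to 0.212% in group-housed and 0.162% to 0.175% in isolated females, against 0.201% to 0.247% and 0.203% to 0.256% in group-housed and isolated males. Only a single female library, in group housing, reached into the male range.

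The order of the genes was set by their level per length, in CPM (counts relative to the TMM-scaled library size) per kilobase of exon. Snap25, the SNAP25 protein of the SNARE complex, and nSyb, the neuronal synaptobrevin of the vesicle membrane, stood highest at 309 ± 96.6 and 300 ± 43.5 CPM per kilobase (SD, n = 12). cpx, the complexin that clamps and supports fusion, followed at 207 ± 45.0. Gad1, the glutamate decarboxylase that makes GABA, stood at 201 ± 41.4, and Syt1, the calcium sensor synaptotagmin, at 178 ± 35.3 (SD, n = 12). The highest receptor was the nicotinic acetylcholine receptor subunit nAChRbeta1, at 153 ± 27.3, and the highest channel was slo, the calcium-activated BK potassium channel, at 117 ± 22.2 (SD, n = 12).

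The lowest levels per length belonged to receptors and potassium channels. Nmdar1 and Nmdar2, the subunits of the NMDA-type glutamate receptor, stood at 24.1 ± 4.20 and 18.2 ± 2.26 CPM per kilobase, Sh, the Shaker potassium channel, at 24.0 ± 5.93, and the nicotinic subunit nAChRalpha1 at 13.8 ± 2.90 (SD, n = 12). Of the 34 pairs of neighbours in this order, 33 overlapped within 1 SD, and only nSyb and cpx did not. By counts rather than per length, cpx alone held 11.1% of the counts of the 35 genes and the release factor unc-13 held 9.33%.

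**Figure D2:**
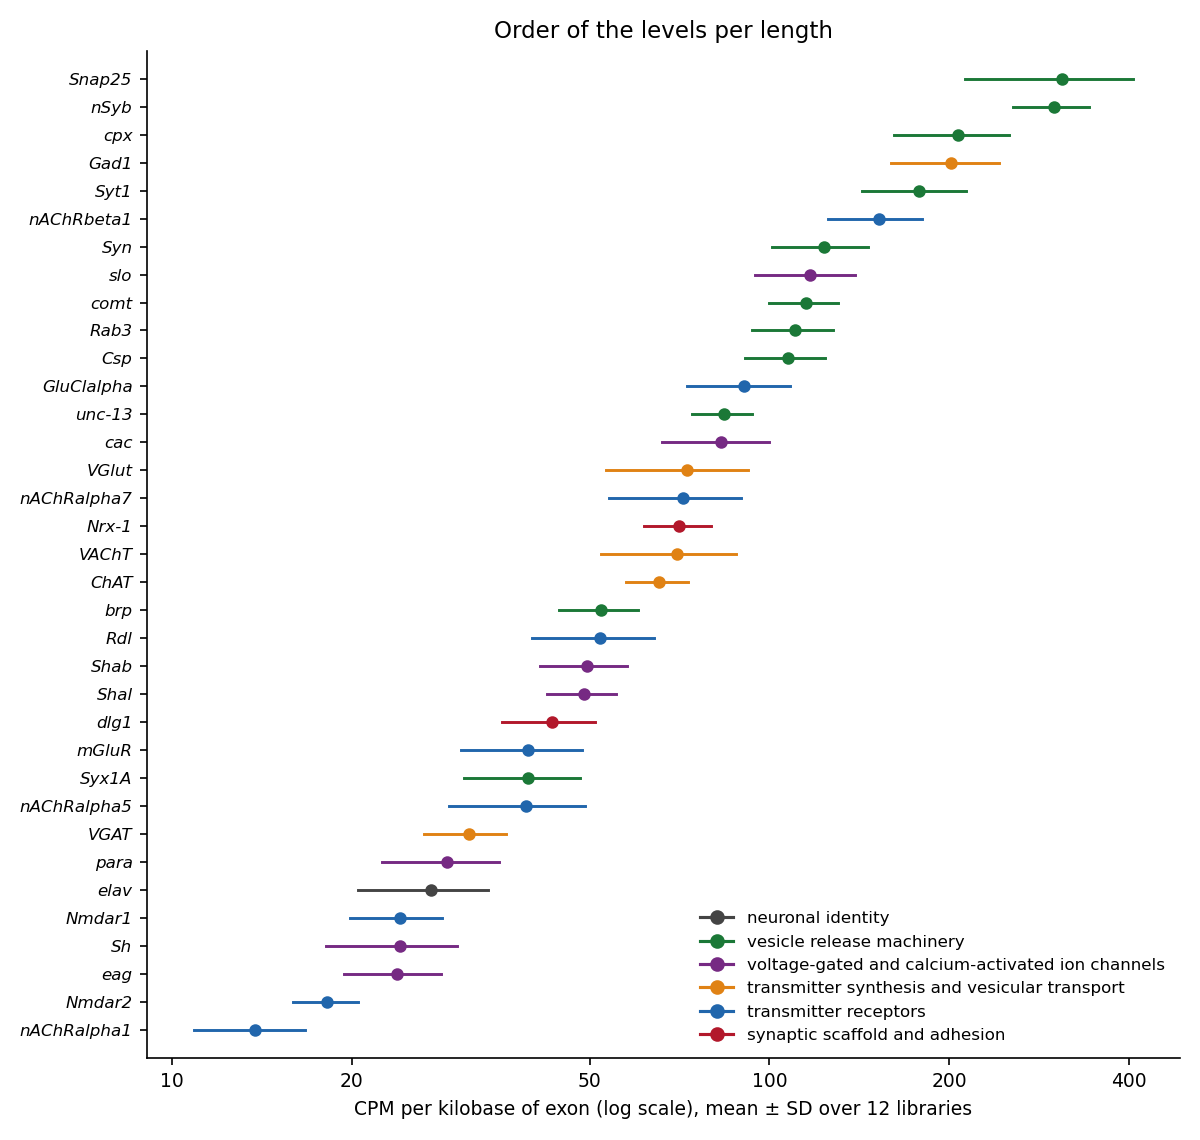
Level of each of the 35 genes in CPM per kilobase of exon on a log axis, with points for the mean and lines for the SD over the 12 libraries, coloured by role. Levels run from 13.8 for nAChRalpha1 to 309 for Snap25, and release genes take 4 of the first 5 places, with Gad1 in the other.

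Some of these levels are uncertain as single genes, because of overlaps with other genes, with the strand setting of the counting not given in the sources used here. In the BDGP6.54 annotation, 27.94% of the exon bases of elav are shared with a long non-coding RNA on the same strand, and 6.28% with a gene on the other strand. ChAT and VAChT, the enzyme that makes acetylcholine and the transporter that loads it into vesicles, lie in a shared locus and share 606 exon bases. Syx1A shares 10.73% of its exon bases with eIF4EHP on the same strand, and unc-13 shares 15.61% with an antisense RNA.

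Isolated and group-housed females differed in 356 features over the whole table, and none of the 35 genes was among them. By edgeR's quasi-likelihood test with Benjamini-Hochberg adjustment over all features, 0 of 35 passed the threshold of 0.05, where 3.48% of all 10238 features did (334 higher, 22 lower). A single gene, slo, had an unadjusted p under 0.05, and slo was also the only gene whose isolated libraries did not overlap the group-housed ones, against 16.3% of all features. The fold changes ran from -0.17 to 0.50 on the log2 scale with a median of 0.12, while the median over all features was -0.02. They were above 0 for 25 genes and below 0 for 10. Scaled by library totals alone, the medians were -0.05 for the 35 genes and -0.23 for all features. The median of the 35 stood 0.14 to 0.18 above that of all features under each of the 4 scalings tried. A scaling shifts all features of a library alike, so this agreement was nearly fixed in advance and is no separate support. DESeq2 called 1 of the 35, slo, and limma-voom called 0. Every 95% interval lay between 0.644-fold and 1.93-fold, so changes of 2-fold or more lay outside the interval of each gene.

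The counts by role were alike in that none passed. Of the 11 release genes 7 had a fold change above 0, of the 7 channels 6, of the 5 genes of transmitter synthesis and loading 3, of the 9 receptors 7, and of the 2 scaffold and adhesion genes 2, while elav was just below 0. Taken within the batches, 29 of 35 were above 0 in batch 1 and 23 of 35 in batch 2, and 21 had the same sign in both. The sign of these small differences depended on the group-housed libraries: without group-housed female replicate 2 the median was 0.41 with 32 genes above 0, and without replicate 1 it was -0.03 with 16 above 0.

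In males none of the 35 passed either (0 of 35 by edgeR's quasi-likelihood test, 0.0781% of all features). DESeq2 and limma-voom also called 0, 0 had an unadjusted p under 0.05, and none had libraries that did not overlap, against 5.77% of all features. Fold changes ran from -0.23 to 0.21 on the log2 scale with a median of -0.02, and the 95% intervals lay between 0.575-fold and 1.48-fold. Above 0 were 12 genes and below 0 were 23. Within batches the signs went opposite ways, with 29 of 35 above 0 in batch 1 and 4 of 35 in batch 2. Without isolated male replicate 1 the median was 0.12 with 27 genes above 0, without isolated male replicate 2 it was -0.11 with 6 above 0, and without group-housed male replicate 2 it was 0.03 with 24 above 0.

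A difference between the responses of females and males was tested directly and was not detected for any of the 35. By edgeR's quasi-likelihood test 0 of 35 passed, where 0.44% of all features did. DESeq2 and limma-voom called 0, and 0 had an unadjusted p under 0.05. The differences had a median of 0.13 on the log2 scale and were above 0 for 30 genes, but scaled by library totals alone the median was -0.06 with 14 genes above 0, and with upper quartile scaling 0.03 with 23 above 0. For 6 of the 35 the 95% interval reached beyond a 2-fold difference. Without group-housed female replicate 2 the median was 0.44, without group-housed female replicate 1 it was -0.01, without group-housed male replicate 2 it was 0.06, and without isolated male replicate 1 it was close to 0.

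**Figure D3:**
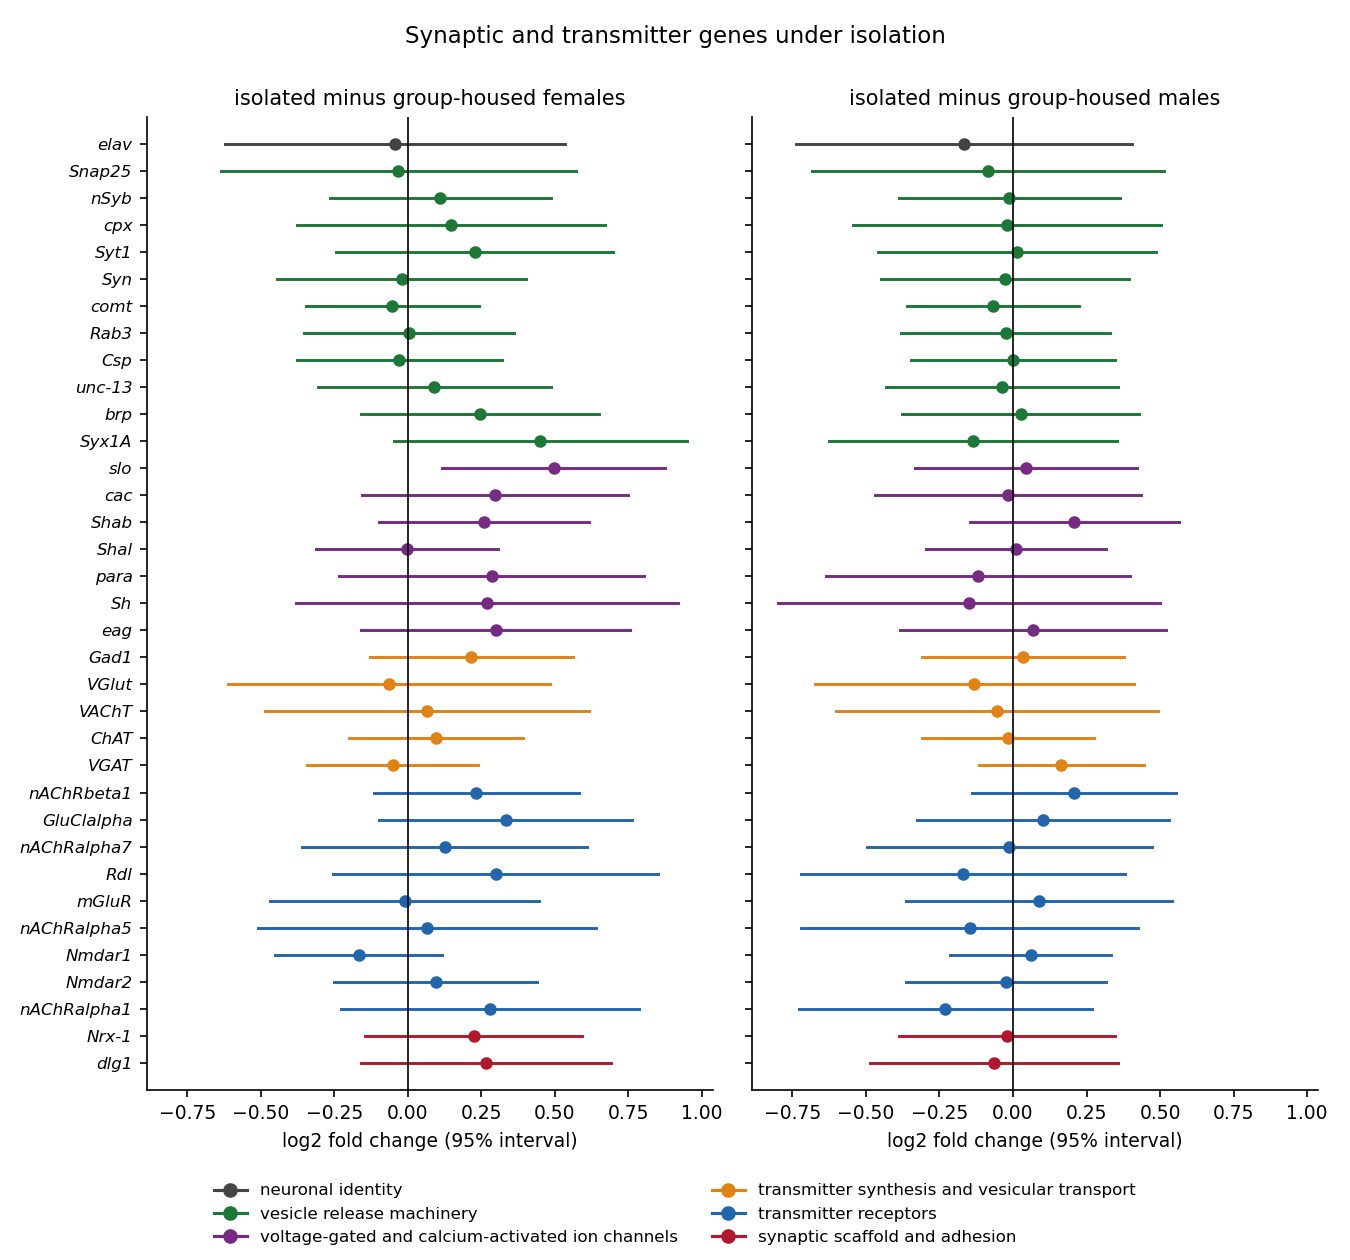
Log2 fold change of isolated over group-housed flies with its 95% interval from the fit to all 12 libraries, for females on the left and males on the right, with the 35 genes ordered by role. All intervals cross 0 except that of slo in females, at 0.50 with an interval of 0.12 to 0.88.

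elav, which encodes an RNA-binding protein found in nearly all neurons, did not pass in either sex. Its level was 230, 177 and 425 CPM in replicates 0, 1 and 2 of group-housed females, and 319, 255 and 227 CPM in isolated females. In males it was 280, 302 and 398 CPM in group housing and 313, 247 and 315 CPM in isolation. The group-housed females alone spanned all values of the other 3 groups. The log2 change under isolation was -0.04 in females (SE 0.27, edgeR adjusted p = 0.967) and -0.17 in males (SE 0.27, edgeR adjusted p = 1).

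brp encodes Bruchpilot, the scaffold of the active zone at which vesicles dock. It stood at 650, 466 and 772 CPM in group-housed females and 667, 803 and 777 CPM in isolated females, overlapping groups with a log2 change of 0.24 (SE 0.19, edgeR adjusted p = 0.625). In males it stood at 629, 759 and 719 CPM in group housing and 695, 596 and 853 CPM in isolation. The male groups overlapped too, and the log2 change was 0.03 (SE 0.19, edgeR adjusted p = 1).

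Snap25 had uneven libraries. It was counted at 421, 462 and 1114 CPM in group-housed females and at 581, 665 and 636 CPM in isolated females. The males had 573, 847 and 965 CPM in group housing and 650, 571 and 988 CPM in isolation. Group-housed female replicate 2 was above every other library, and the log2 change in females was -0.03 (SE 0.28, edgeR adjusted p = 0.978). Syx1A, the plasma membrane syntaxin, stood at 167, 75.2 and 189 CPM in group-housed and 195, 202 and 186 CPM in isolated females, a log2 change of 0.45 (SE 0.23, edgeR adjusted p = 0.401). Its low value in group-housed female replicate 1 set it apart from the other libraries of its group.

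slo was the gene that came nearest to the threshold under isolation. It encodes the pore of the BK channel, a potassium channel opened jointly by calcium and depolarization known to shorten action potentials. The BDGP6.54 annotation places this protein-coding gene on the plus strand of 3R (24662491 to 24711595), with no exonic overlap with another gene. Group-housed females had 915, 940 and 1319 CPM and isolated females 1367, 1531 and 1570 CPM, so that every isolated library was above every group-housed one. Group-housed males had 988, 1070 and 1189 CPM and isolated males 1182, 951 and 1208 CPM, which overlapped.

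In females the log2 change of slo was 0.50 (SE 0.18, 95% interval 0.12 to 0.88), with an edgeR adjusted p = 0.187, which did not pass. Within batches it was 0.58 in batch 1, where each group has a single library, and 0.46 in batch 2. In males it was 0.05 (SE 0.18, edgeR adjusted p = 1), and the difference between the sexes was 0.45 (SE 0.25, edgeR adjusted p = 0.797), so a response particular to females was not shown. DESeq2 called slo in females (adjusted p = 0.0369), as did the fit without group-housed female replicate 2 (log2 0.67, edgeR adjusted p = 0.0356).

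The ratio of slo to another potassium channel in the same library does not depend on the scaling. Per length, slo over Shal, the A-type Kv4 channel, was 2.207, 2.19 and 2.388 in group-housed females and 3.099, 3.25 and 3.303 in isolated females. In males it was 2.16, 2.056 and 1.97 in group housing and 2.31, 2.042 and 1.974 in isolation. The 3 isolated female libraries stood above the other 9. This ratio was chosen after the values were seen, has no test, and shows unequal change of the pair only. The other channels had fold changes in females from -0.00 for Shal to 0.30 for eag, the ether-a-go-go potassium channel, all with intervals that include 0.

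**Figure D4:**
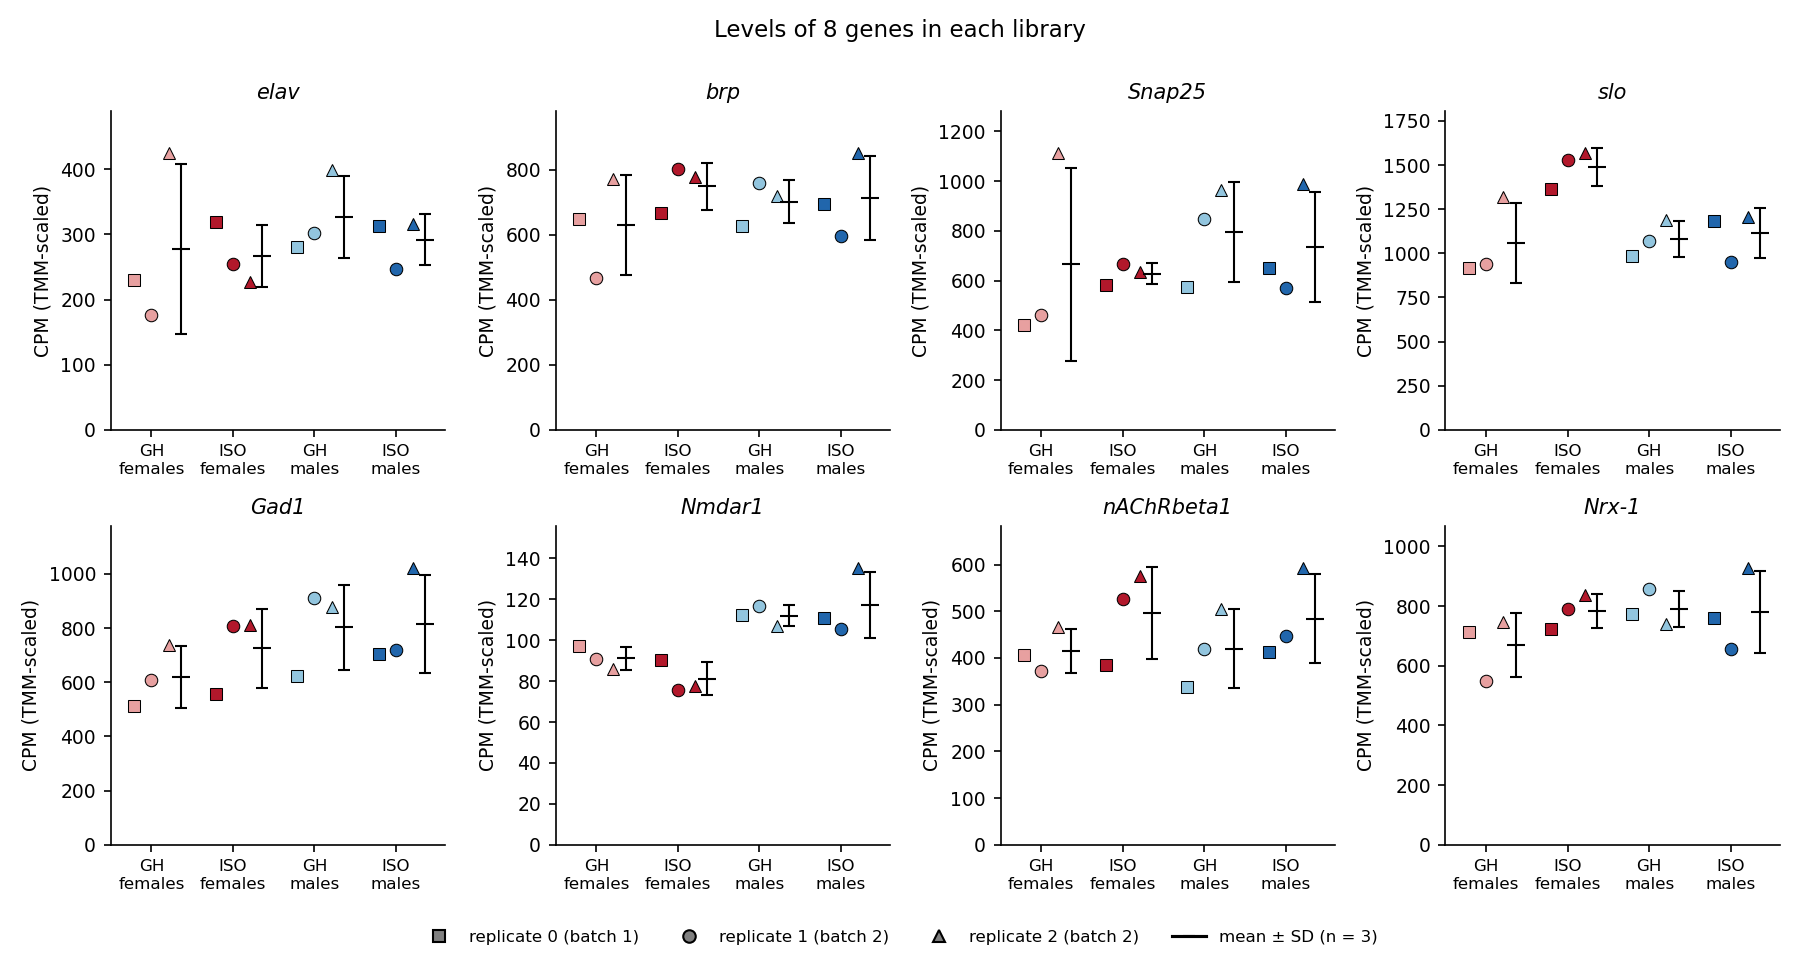
Level of 8 genes in CPM (TMM-scaled) in each of the 12 libraries (GH, group-housed; ISO, isolated), with the mean and SD of each group in black and axes from 0. For slo the isolated females (1367 to 1570) lie above all other libraries, and for Nmdar1 all 6 female libraries (75.6 to 97.2) lie below all 6 male libraries (105 to 135).

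None of the 5 transmitter genes passed under isolation. Gad1 stood at 512, 610 and 738 CPM in group-housed and 556, 808 and 810 CPM in isolated females. It stood at 622, 911 and 876 CPM in group-housed and 705, 718 and 1023 CPM in isolated males. Replicate 0, of batch 1, was the lowest library of each group. The log2 change was 0.22 in females (SE 0.16, edgeR adjusted p = 0.611) and 0.03 in males (SE 0.16, edgeR adjusted p = 1).

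The other transmitter genes lay between -0.06 for VGlut, the vesicular glutamate transporter, and 0.10 for ChAT in females. Per length, VAChT over ChAT was 1.03 ± 0.437 in group-housed females, 1.02 ± 0.108 in isolated females, 1.13 ± 0.20 in group-housed males and 1.08 ± 0.0807 in isolated males (SD, n = 3). The level of the loader was thus close to that of the enzyme on average in all 4 groups, with the widest spread in group-housed females.

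Of the 35 genes, nAChRbeta1 had the smallest p under isolation in males. It stood at 337, 419 and 505 CPM in group-housed and 413, 447 and 593 CPM in isolated males, overlapping groups with a log2 change of 0.21 (SE 0.16, edgeR adjusted p = 1). Group-housed females had 406, 373 and 467 CPM and isolated females 386, 527 and 575 CPM, a log2 change of 0.23 (SE 0.16, edgeR adjusted p = 0.581). The groups overlapped in both sexes. The other receptors had log2 changes in females from -0.17 for Nmdar1 to 0.33 for GluClalpha, the glutamate-gated chloride channel, none of which passed.

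Nrx-1, a neurexin that links the pre- and postsynaptic membranes, stood at 714, 548 and 747 CPM in group-housed and 722, 789 and 837 CPM in isolated females. It stood at 774, 858 and 740 CPM in group-housed and 759, 657 and 929 CPM in isolated males. All 4 groups overlapped. The log2 change was 0.22 in females (SE 0.17, edgeR adjusted p = 0.625) and -0.02 in males (SE 0.17, edgeR adjusted p = 1).

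Females and males were then compared within each housing, on libraries shared with the isolation comparisons. In group housing 0 of 35 genes passed edgeR's quasi-likelihood test, where 2.73% of all features did, and DESeq2 and limma-voom also called 0. Gad1 and Nmdar1 had an unadjusted p under 0.05, with log2 differences of females minus males of -0.37 (SE 0.16, edgeR adjusted p = 0.351) and -0.30 (SE 0.13, edgeR adjusted p = 0.347). The 35 differences had a median of -0.22, against -0.01 over all features, and 34 of them were below 0. With the trend on 3′ UTR length removed, a setting chosen after the data were seen, the median was -0.08 with 12 genes above 0. In batch 2 all 35 were below 0 and in batch 1 30 were. Of the other genes listed for neuronal functions, 135 were tested, with 117 below 0, 18 above 0 and a median of -0.16. For 3 of 35 genes the female libraries were all below the male ones, against 6.53% of all features (13.9% in either direction). They were comt, the NSF ATPase that takes SNARE complexes apart, ChAT and Nmdar1.

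These values depended on which group-housed libraries were counted. Without replicate 2 of the group-housed females, 5 genes passed as lower in females (elav, nAChRalpha1, Snap25, VAChT and VGlut), and the median was -0.43 with 0 genes above 0. The share of all features that passed in that fit was not taken, so these 5 cannot be set against it. Without replicate 1 none passed, and the median was close to 0 with 16 genes above 0. Without group-housed male replicate 2 the median was -0.10 with 6 above 0.

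Under isolation Nmdar1 was lower in females than in males, 1 of 35 genes, where 4.24% of all features passed and 0.635% passed as lower in females. The median of the 35 was -0.04, with 20 below 0 and 15 above. Over the 12 fits that left out 1 library it lay between -0.16 and 0.05, with 7 to 20 genes above 0. Within batches, 29 of the 35 were below 0 in batch 1 and 16 in batch 2. Of the 135 other genes tested from the neuronal lists, 99 were below 0 and 36 above, with a median of -0.11. Scaled by library totals alone, the median was -0.24 for the 35 genes and -0.23 for all features. The libraries of the sexes did not overlap for 6 genes: Syx1A, Sh and slo were higher in females and comt, VGAT and Nmdar1 lower, against 22% of all features (11.9% higher and 10.1% lower). VGAT, the vesicular GABA transporter, differed by -0.43 (SE 0.14, edgeR adjusted p = 0.0946), from 71.8, 60.7 and 87.5 CPM in isolated females and 94.8, 100.4 and 103.6 CPM in isolated males.

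Nmdar1 encodes the obligatory subunit of the NMDA receptor, which in flies as in mammals is needed for associative memory. The BDGP6.54 annotation places it on the minus strand of 3R (5508842 to 5523328), with no exonic overlap. Group-housed females had 97.2, 90.6 and 86.0 CPM and isolated females 90.3, 75.6 and 77.4 CPM. Group-housed males had 112, 117 and 107 CPM and isolated males 111, 105 and 135 CPM. All 6 female libraries lay below all 6 male libraries.

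The log2 difference of females minus males for Nmdar1 was -0.52 under isolation (SE 0.13, 95% interval -0.81 to -0.24, edgeR adjusted p = 0.0343), with -0.30 in batch 1 and -0.65 in batch 2. The log2 change of Nmdar1 under isolation was -0.17 in females (SE 0.13, edgeR adjusted p = 0.637) and 0.06 in males (SE 0.13, edgeR adjusted p = 1), and the difference between these was -0.23 (SE 0.19, edgeR adjusted p = 0.907), so the sex difference was not shown to depend on housing. The call was lost without group-housed male replicate 0, without any 1 of the isolated female replicates, and without isolated male replicate 0 or 2. Over the 12 fits that left out 1 library the difference stayed between -0.61 and -0.40, and the edgeR adjusted p reached 0.174. Its partner subunit Nmdar2 differed between the isolated sexes by -0.01 (SE 0.16, edgeR adjusted p = 0.983). Per length, Nmdar1 over Nmdar2 was 1.30 ± 0.219 and 1.07 ± 0.174 in group-housed and isolated females, and 1.44 ± 0.0796 and 1.54 ± 0.177 in group-housed and isolated males (SD, n = 3). Isolated females, at 0.922 to 1.26, lay below all 6 male libraries in this ratio, which was chosen after the values were seen and was not tested.

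The spread between replicates of these genes was uneven, and it enters each comparison above. In group-housed females the highest library exceeded the lowest by a median of 1.73-fold, from 1.02-fold for comt to 3.13-fold for Sh, and 22 of 35 genes reached 1.5-fold. In isolated females the median was 1.17-fold and no gene reached 1.5-fold. In group-housed and isolated males the medians were 1.34-fold and 1.37-fold. Features at large also spread most in group-housed females. There the median SD of log2 CPM was 0.41 for the 35 genes and 0.24 for the 2916 features at or above their lowest mean level. It was 0.13 against 0.14 in isolated females, 0.22 against 0.19 in group-housed males and 0.24 against 0.18 in isolated males.

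The genes moved together within a library. In group-housed female replicate 1, 32 of 35 were below their group mean, by a median of -0.33 on the log2 scale, and in replicate 2, 34 of 35 were above it, by 0.44, while the medians over all features were 0.01 and -0.03. In isolated males replicate 1 had 34 of 35 below, by a median of -0.21, and replicate 2 had 33 of 35 above, by 0.23. Group-housed males were split about as far, with 30 of 35 below in replicate 0, by -0.22, and 29 of 35 above in replicate 2, by 0.19. In isolated females the deviations were smaller, with 27 of 35 below in replicate 0, by -0.09, and 27 of 35 above in replicate 1, by 0.05.

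Within the group-housed females the difference between replicates 2 and 1 went with the length of the annotated 3′ UTR, the untranslated end of the transcript. The 35 genes have long ones, with a median of 3113 bases (522 to 8785) for the longest annotated form, against 319 over tested features with one. The difference was near 0 for Nmdar1 (-0.07), comt (-0.01), ChAT (0.12) and VGAT (0.12), and largest for Sh (1.65), nAChRalpha5 (1.36), Syx1A (1.32) and para, the sodium channel (1.28). Across the 35 genes, which share both libraries and are not independent replicates, Pearson's r with log2 length was 0.75 and Spearman's rho 0.70. Over 9308 tested features they were 0.342 and 0.419, and the median difference rose from -0.28 under 100 bases to 0.60 at 2000 bases or more.

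Other groups showed this to different degrees, and the 35 genes did not always follow all features. In isolated males the medians over the same classes of length ran from -0.30 to 0.37 between replicates 2 and 1, but across the 35 genes themselves r with log2 length was 0.03 (rho -0.08). In group-housed males the medians over all features lay between -0.03 and 0.12, and r across the 35 was 0.57 (rho 0.57). In isolated females the medians lay between -0.04 and 0.01, and r across the 35 was -0.58 (rho -0.51).

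With the trend on 3′ UTR length removed from each library, a setting chosen after the data were seen, the responses of the 35 genes lay nearer to 0. Of the 35 genes, 25 have a 3′ UTR of 2000 bases or more. A shift shared by genes with long 3′ UTRs is removed by construction, so this setting cannot tell a change of neuronal genes from a trend on length. The median under isolation in females was 0.04 with 19 genes above 0, against 0.12 with 25. In males it was 0.01 with 22 above 0, against -0.02 with 12, and for the difference between the sexes in response 0.03 with 21 above 0, against 0.13 with 30. Only features with an annotated 3′ UTR entered this fit and its adjustment. Under this setting the log2 change of slo under isolation in females was 0.36 (SE 0.11, edgeR adjusted p = 0.0945), and slo and Nmdar1 differed between the isolated sexes by 0.41 (SE 0.11, edgeR adjusted p = 0.0412) and -0.53 (SE 0.12, edgeR adjusted p = 0.0163).

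**Figure D5:**
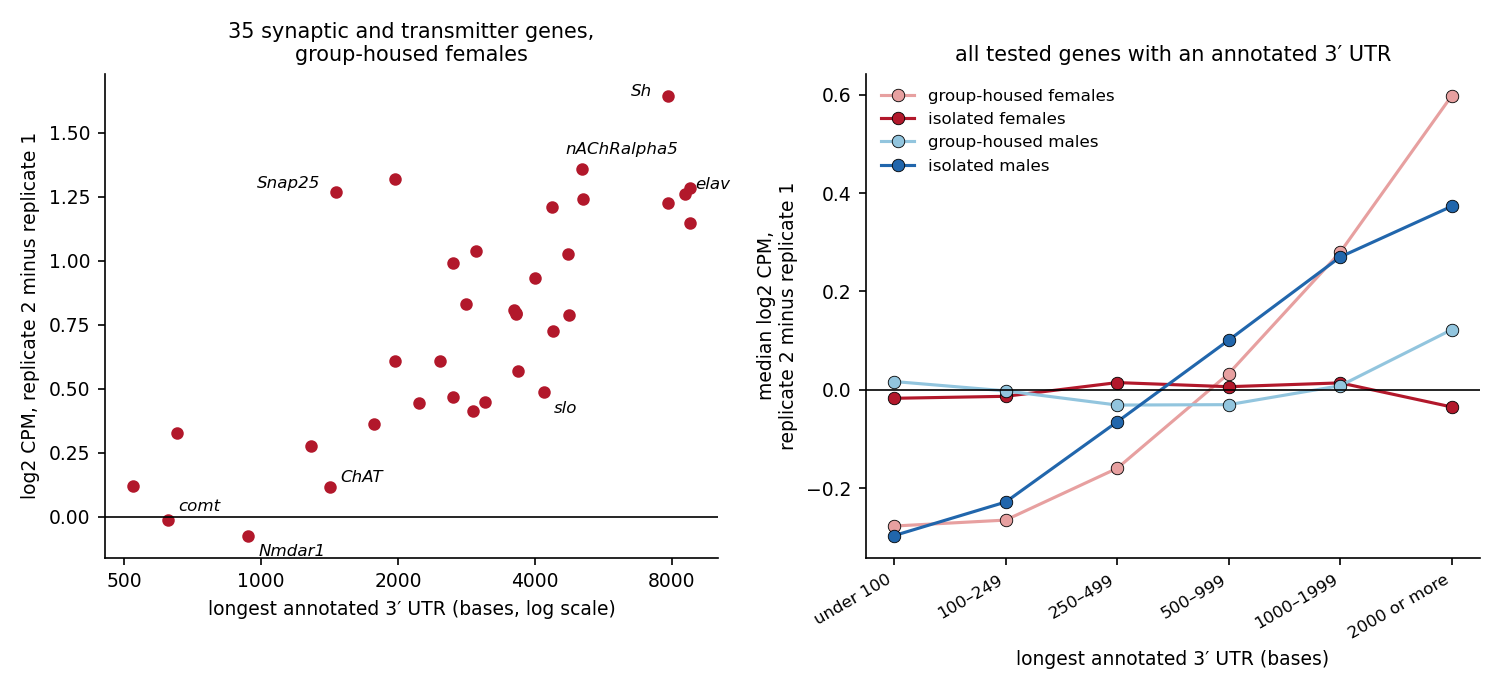
Left, difference in log2 CPM between replicates 2 and 1 of group-housed females for the 35 genes against the longest annotated 3′ UTR in bases on a log axis, rising from -0.07 for Nmdar1 to 1.65 for Sh. Right, median of the same difference over all tested genes with an annotated 3′ UTR in 6 classes of length, for each group; it rises to 0.60 in group-housed females and 0.37 in isolated males and stays between -0.04 and 0.01 in isolated females.

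Of the 139 other genes listed for neuronal functions, 135 were tested. In isolated against group-housed females 3 were higher and 0 lower by edgeR's quasi-likelihood test, where 3.48% of all features passed. All 3 came from the list of transmitter synthesis and clearance. These were Got1 and Got2, aspartate aminotransferases of the cytosol and the mitochondria, and Gs1, a glutamine synthetase, enzymes of general amino acid metabolism that are also made outside neurons. Got1 stood at 383 ± 38.9 CPM under group housing and reached 744 ± 38.7 CPM under isolation (SD, n = 3), a log2 change of 0.96 (SE 0.14, edgeR adjusted p = 0.00077). Got2 rose from 142 ± 17.1 to 290 ± 45.7 CPM (SD, n = 3), by 1.03 (SE 0.21, edgeR adjusted p = 0.00856), and Gs1 from 656 ± 105 to 1036 ± 121 CPM (SD, n = 3), by 0.66 (SE 0.14, edgeR adjusted p = 0.0144).

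These 3 genes moved beside the fat body markers given above, and the part of that tissue in their rise was not tested. The call for Got2 was lost without group-housed female replicate 0 or isolated female replicate 0, and that for Gs1 without any 1 of these or of isolated female replicates 1 and 2. In males none of the 135 passed (0.0781% of all features did), and none passed the test of a difference in response between the sexes, where DESeq2 called 2, Got1 and Gs1. Ork1, a potassium leak channel, was higher in females than in males in group housing, by 0.63 (SE 0.13, edgeR adjusted p = 0.0152), and under isolation, by 0.82 (SE 0.14, edgeR adjusted p = 0.00184), with 67.2 to 76.9 CPM in the 6 female and 38.1 to 49.4 CPM in the 6 male libraries. It was the only 1 of the 135 to pass in either comparison, where 2.73% and 4.24% of all features did. The call in group housing was lost without group-housed male replicate 0 or 2. The medians of the 135 under isolation were 0.06 in females and -0.01 in males.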

How the data were processed

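The 35 genes and the lists beside them were chosen with earlier results of these data known. The authors deposited 1 table of raw read counts in whole numbers, a row for each feature and a column for each of 12 libraries. Another deposited column, of other per-gene numbers tied to no sample, was not used. The submitters' processing notes list HTSeq 2.0.5, STAR 2.7.10b, edgeR 4.4.1, Picard 2.27.5 and R 4.4.0, with no roles. Genome build, annotation release and strand setting are among the facts not given in the sources used here. Lines naming no gene, 10.2% to 13.2% of each column, were left out.

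The edgeR (4.0.16), limma (3.58.1) and R (4.3.3) versions used here differ from those. filterByExpr kept 10238 features (minimum count 10, minimum total 15). After TMM scaling, a single robust quasi-likelihood model held 4 group means plus the batch, with 7 residual degrees of freedom. P-values of each contrast came from glmQLFTest, and the Benjamini-Hochberg adjustment ran over all 10238 features, with a threshold of 0.05. The SE is the size of the log2 fold change over the square root of F. CPM of single genes are TMM-scaled, and summed shares are percent of all feature counts without TMM. Exon and 3′ UTR lengths and coordinates come from the Ensembl annotation of BDGP6.54, matched by gene identifier for all 35. The fits were also run on simulated counts, drawn independently for each gene and without the shifts shared within a library described above. No result given here rests on that simulation. Genes with values in every library were elav, brp, any of the 35 past the threshold, the highest per length in each role, and those of smallest p under isolation. Values of others show the spread or were chosen after they were seen. No pair of replicates came within sampling noise (chi-square over degrees of freedom 4.48 to 65.7), and each library was counted as 1. These values cannot show that the pools of heads were independent, since separate preparations of the same pool could also exceed that noise. Alternatives were other scalings and filters, limma-voom, DESeq2 1.42.0, other batch terms, a minimum fold of 1.2, subsets of libraries, leaving out each library, and, chosen after seeing the data, removal of a 3′ UTR trend, group-housed females from replicate 0 alone, and a total without the 100 most abundant features.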

Additional observations from a re-analysis of the deposited data

How the results depend on the processing

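The counts of the 35 genes past the threshold in the 2 isolation comparisons and in their difference were 0 under the alternatives that kept all libraries, except that in females DESeq2 gave 1 (slo). Leaving out each library in turn gave 0 to 2 in females (2 without group-housed female replicate 2, slo and Syx1A), 0 to 0 in males and for the difference, 0 to 5 between the sexes in group housing, and 0 to 1 between the sexes under isolation. Calls over all features were counted only for the fit as reported and the other scalings. The counts of the 35 under the remaining alternatives therefore have no share of all features beside them.

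Between the sexes under isolation the count, 1 as reported, was 2 with library totals alone, 2 with DESeq2 (Nmdar1 and VGAT in both), 2 with the 3′ UTR trend removed (Nmdar1 and slo), and 0 with no batch term, in batch 2 alone, with isolated females from replicate 0 alone, and with a minimum fold of 1.2. With library totals alone 174 of all features passed as lower in females and 160 as higher. For Nmdar1 the difference under these alternatives stayed between -0.73 and -0.39. By construction, batch 2 alone and a single isolated female library leave fewer samples, and the causes of the other changes were not tested.

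With the replicate number as a block in place of the batch, the count was 1 between the sexes under isolation (Nmdar1, edgeR adjusted p = 0.030) and 0 in the other 4 comparisons. With this block the median of the 35 under isolation in females was 0.18 with 30 genes above 0, against 0.12 with 25 as reported. Deviations of same-numbered libraries within batch 2 correlated by -0.19 to 0.316 across features. These values do not settle whether numbers 1 and 2 pair libraries beyond the batch.

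The summed share of the 35 genes in isolated females was 2.075% without the fat body list in the total, 2.147% with TMM-scaled library sizes and 1.718% without cpx, and in isolated males 1.964% without cpx. Per length it was 0.766%, 0.732%, 0.901% and 0.902% in group-housed females, isolated females, group-housed males and isolated males, and without the 100 most abundant features 2.399%, 2.478%, 2.659% and 2.647%. The ratio of isolated to group-housed means ran from 0.956 to 1.125 in females and from 0.984 to 1.005 in males. Most of the 1207 values of single genes under alternatives were of genes not called as reported, which had no call to lose. In all, 36 calls were lost, 5 were gained and 0 reversed. The lost calls were those of Nmdar1, Got1, Got2, Gs1 and Ork1, with 27 alternatives to each reported call. Among values called in neither fit, 94 changed sign. With library totals alone 79.8% of all calls in females were higher under isolation, against 93.8% as reported, and 47.9% against 85% were higher in females under isolation. With 3 libraries a group the 95% intervals of the 35 genes reached from 0.513-fold to 1.93-fold in the comparisons of groups and up to 2.53-fold for the difference between the sexes in response, which limits what could be detected, and the isolated females of batch 2 were the shallowest.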
